A study of Mus musculus with 16 samples.

Results

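A set of 6 genes linked to the γδ T cell fate, *Cd163l1*, *Sox13*, *Etv5*, *Blk*, *Maf* and *Zbtb16*, was followed in immature thymocytes that lack or carry PKBα. All 16 probe sets annotated to these 6 symbols were taken, out of 45101 probe sets on the array and 18194 genes that have a probe set of their own. A probe set is a group of short DNA probes whose combined brightness gives the level of a transcript. The set was chosen by the values of *Cd163l1*, which were known to differ between the genotypes in DN3 thymocytes. The other 5 genes were added for their role. Genotype differences of these 6 genes in DN3 cells are therefore given as a description and without a test. The samples were DN3 and ISP8 thymocytes of PKBα-/- mice and of their wild-type (PKBα+/+) littermates, all from a C57Bl/6 backcross. The mutation was present in the whole animal, so that the thymic stroma lacked PKBα as well. The 4 littermate pairs were 3-week-old females, 3-week-old males, 2-week-old males and 5-week-old females, each with 1 PKBα-/- and 1 wild-type mouse. Both subsets were sorted from each mouse, which gave 16 arrays in 4 groups of 4. DN3 cells are lineage-negative thymocytes with CD25 and without CD44 on their surface, in which the T cell receptor β chain is tested, and ISP8 cells are the CD8-positive, CD4- and CD3-negative cells that come after them on the αβ path.

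Thymic precursors choose between the αβ and the γδ lineage at about the DN3 stage, depending on which receptor they assemble and on how strongly it signals. A strong receptor signal induces EGR and Id3 proteins and moves cells towards the γδ fate, whereas SOX13 and other HMG-box factors, ETV5, BLK, c-MAF and PLZF (the product of *Zbtb16*) are known for setting up subsets of γδ T cells that make cytokines early. *Cd163l1* encodes a receptor of the scavenger receptor cysteine-rich family, also called SCART1, whose transcript is abundant in γδ T cells. The sort of DN3 cells removed cells with surface γδ receptor, and the sorted populations were measured in bulk, so that fewer cells of a type and less RNA per cell cannot be told apart.

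The start regions of *Cd163l1*, *Sox13* and *Etv5* are shown as the sequence context of these members, from 250 bases before to 50 after the start site in RefSeq (GRCm38.p6). *Etv5* has 2 such regions, and *Blk*, *Maf* and *Zbtb16* are named only. The letters were searched on both strands for the SOX core ACAAT, the ETS core GGAAG and the Maf half-site TGCTGA, none of which overlaps another of them here, and matches are in capitals (CTTCC is the ETS core on the other strand).
Cd163l1 start region, chr7:140218017-140218316, plus strand: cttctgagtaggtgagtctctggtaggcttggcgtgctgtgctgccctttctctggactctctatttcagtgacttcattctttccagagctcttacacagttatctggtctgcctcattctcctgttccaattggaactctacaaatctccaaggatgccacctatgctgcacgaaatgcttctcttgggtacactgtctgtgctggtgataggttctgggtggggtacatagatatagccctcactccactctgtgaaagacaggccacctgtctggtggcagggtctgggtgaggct
Sox13 start region, chr1:133424163-133424462, minus strand: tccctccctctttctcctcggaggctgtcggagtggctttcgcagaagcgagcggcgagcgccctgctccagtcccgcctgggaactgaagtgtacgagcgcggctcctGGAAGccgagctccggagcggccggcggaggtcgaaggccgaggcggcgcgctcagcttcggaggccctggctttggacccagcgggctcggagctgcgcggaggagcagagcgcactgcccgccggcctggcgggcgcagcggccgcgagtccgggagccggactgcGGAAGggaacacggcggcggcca
Etv5 start region, chr16:22439521-22439820, minus strand: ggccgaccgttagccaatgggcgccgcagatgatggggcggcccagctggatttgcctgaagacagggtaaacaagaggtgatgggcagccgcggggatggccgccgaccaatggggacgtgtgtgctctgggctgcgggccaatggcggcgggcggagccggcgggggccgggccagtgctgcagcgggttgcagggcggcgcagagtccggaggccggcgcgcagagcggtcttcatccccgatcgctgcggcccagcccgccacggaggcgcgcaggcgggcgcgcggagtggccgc
Etv5 start region, chr16:22438319-22438618, minus strand: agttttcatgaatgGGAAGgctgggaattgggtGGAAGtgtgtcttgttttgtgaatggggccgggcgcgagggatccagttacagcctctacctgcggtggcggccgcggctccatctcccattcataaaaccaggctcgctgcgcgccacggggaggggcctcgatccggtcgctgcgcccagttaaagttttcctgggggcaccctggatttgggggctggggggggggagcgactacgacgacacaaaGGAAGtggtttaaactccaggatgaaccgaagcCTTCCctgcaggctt
The *Cd163l1* region and the first *Etv5* region held none of the 3 motifs, the *Sox13* region held 2 ETS cores, and the second *Etv5* region held 4. Of 32851 promoter regions of this length in RefSeq, 71.4% held an ETS core, 31.0% a SOX core and 19.5% a Maf half-site. The *Cd163l1* window lies inside the span that RefSeq gives the gene and may belong to an internal start. Matches and their absence describe the letters of these windows and not bound sites.

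The deletion and the sort were visible in the arrays. *Akt1*, which encodes PKBα, had values of 4.87 to 6.81 in PKBα-/- ISP8 samples, against 1628 to 2211 in their wild-type littermates, and of 2.01 to 27.3 in PKBα-/- DN3 cells, against 1198 to 2007 in wild-type DN3 cells. *Il2ra*, which encodes CD25, averaged 258 in ISP8 cells and 8905 in DN3 cells of PKBα-/- mice, and *Cd8a* averaged 5968 in ISP8 cells and 150.1 in DN3 cells of the same mice. The array medians lay between 55.1 and 70.5, and 69.5% to 72.8% of the probe sets of an array were above 20. All values are GC-RMA values, a linear scale on which the authors had already removed background and normalized the arrays to each other. The array labels number the ISP8 arrays ahead of the DN3 arrays, so that array order and subset cannot be told apart.

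Of the 16 probe sets, 7 from 5 genes had a mean above 100 in at least 1 group, both of *Cd163l1*, 2 of *Maf* and 1 each of *Sox13*, *Etv5* and *Blk*. The other 9, the 3 of *Zbtb16* among them, had no group mean above 58.3 and no value above 110.0 on any array. Low values of this kind scatter widely between littermates on a log scale.

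*Cd163l1* was higher in PKBα-/- than in wild-type DN3 cells of every littermate pair. On its brighter probe set (1440808_x_at) the values were 1712, 1908, 1761 and 4375 in PKBα-/- DN3 cells, against 641, 596, 611 and 2978 in wild-type DN3 cells, in the order 3-week females, 3-week males, 2-week males and 5-week females. The 3 younger PKBα-/- mice lay close together and above their 3 littermates, whereas the 5-week-old pair stood far above the others of its genotype, and the wild-type mouse of that pair exceeded the 3 younger PKBα-/- mice, so that the groups overlapped. The pair differences, PKBα-/- minus wild-type on the log2 scale, were 1.42, 1.68, 1.53 and 0.55, with a mean of 1.29 ± 0.505 (SD, n = 4 pairs). Without the 5-week-old pair the mean was 1.54.

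The second *Cd163l1* probe set (1455527_at) was dimmer and ran the same way. Its values were 522, 465, 515 and 728 in PKBα-/- DN3 cells, against 195, 258, 269 and 703 in wild-type DN3 cells, with log2 differences of 1.42, 0.85, 0.93 and 0.05. The mean difference was 0.81 ± 0.57 (SD, n = 4 pairs), and it was 1.07 without the 5-week-old pair, in which the littermates were nearly level. On both probe sets the 5-week-old mice were highest in each genotype. Probe sets with the ending x_at may also bind related transcripts, which the 1455527_at probe set is not marked for. Over all probe sets tested in DN3 cells, 13 of 33962 (0.0383%) passed an adjusted p of 0.05 between the genotypes, and 5.51% were higher in PKBα-/- mice of 4 of 4 pairs.

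**Figure D1:**
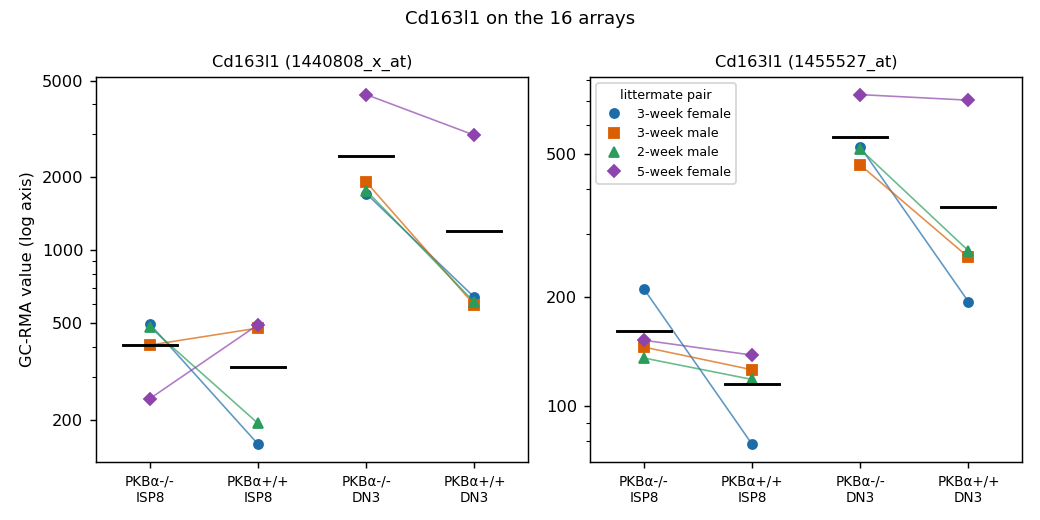
GC-RMA values (log axis) of both *Cd163l1* probe sets in PKBα-/- and PKBα+/+ ISP8 cells and PKBα-/- and PKBα+/+ DN3 cells. Each point is 1 array, its shape and colour give the littermate pair, lines join littermates and black bars are group means (n = 4). All DN3 arrays lie above the ISP8 arrays of the same genotype, and the 5-week-old DN3 mice reach 4375 and 2978 on 1440808_x_at.

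In ISP8 cells the genotypes overlapped and neither *Cd163l1* probe set passed the test. On 1440808_x_at the values were 496, 408, 483 and 245.5 in PKBα-/- ISP8 cells, against 159, 479, 194 and 494.5 in wild-type ISP8 cells, in the same order of pairs. The PKBα-/- mouse was the higher in 2 of 4 pairs, and the 5-week-old pair, highest in DN3 cells, held the lowest PKBα-/- value here. The log2 difference was 0.43 ± 0.34 (n = 4 pairs, adjusted p = 0.858 by limma), where the error of this and of every tested difference below is limma's standard error, moderated across probe sets. The SD of the 4 pair differences was 1.26. On 1455527_at the values were 211, 146, 136 and 152 in PKBα-/- ISP8 cells, against 78.5, 126, 119 and 139 in wild-type ISP8 cells. The PKBα-/- mouse was the higher in 4 of 4 pairs, mostly through the 3-week-old females, and the difference was 0.49 ± 0.27 (adjusted p = 0.831). The study picked *Cd163l1* from these same arrays in both subsets, so its direction in ISP8 cells is not independent evidence either.

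*Cd163l1* was lower in ISP8 than in DN3 cells in both genotypes. The 1440808_x_at value fell by 2.51 ± 0.28 on the log2 scale in PKBα-/- mice (adjusted p = 1.29e-05) and fell by 1.64 ± 0.28 in wild-type mice (adjusted p = 4.84e-04; n = 4 mice each). The 1455527_at value fell by 1.79 ± 0.20 in PKBα-/- mice (adjusted p = 9.25e-06) and fell by 1.47 ± 0.26 in wild-type mice (adjusted p = 7.46e-04). The SD of the 4 PKBα-/- differences on 1440808_x_at was 1.11, and this call weakened with robust moderation (adjusted p = 0.0353). By the methods' paired test it did not pass (adjusted p = 0.102), and neither did 1440808_x_at (0.15) or 1455527_at (0.0883) in wild-type mice. The 1455527_at drop in PKBα-/- mice passed with both (1.95e-06 and 0.0426). No ISP8 array reached the lowest DN3 array of its genotype on either probe set. The comparisons in the genotypes share arrays with the comparisons between them. The difference of the differences was not tested for *Cd163l1*, whose DN3 values led to its choice. The drops start from these same DN3 values, so their size and p are not independent of that choice.

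*Sox13*, an HMG-box factor of the SOXD group that promotes γδ development, was the only one of the 5 genes with a probe set above 100 that was lower in PKBα-/- DN3 cells of all pairs. Its values were 117, 246, 304 and 181 in PKBα-/- DN3 cells, against 129, 404.5, 335 and 198 in wild-type DN3 cells. The groups overlapped, and all 4 males lay above all 4 females whatever their genotype, with only 2 litters of each sex. The log2 difference was -0.28 ± 0.29 (SD, n = 4 pairs), of which the 3-week-old males held the largest share with -0.72. Of all probe sets tested in DN3 cells, 6.98% were lower in PKBα-/- mice of 4 of 4 pairs. In ISP8 cells the values were 32.4, 54.5, 92.2 and 81.4 in PKBα-/- mice, against 89.4, 94.1, 75.9 and 63.0 in wild-type mice, lower in 2 of 4 pairs, and the difference of -0.40 ± 0.39 did not pass (adjusted p = 0.88). *Sox13* fell by 1.73 ± 0.28 in ISP8 relative to DN3 cells of PKBα-/- mice (adjusted p = 2.98e-04) and fell by 1.61 ± 0.31 in wild-type mice (adjusted p = 0.00126), without overlap in either genotype.

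*Etv5*, an ETS factor of the PEA3 group known from γδ T cells that make cytokines, was measured best by 1428142_at. Its values were 177, 146, 170 and 126 in PKBα-/- DN3 cells, against 66.3, 184, 151 and 50.6 in wild-type DN3 cells. The PKBα-/- mice lay within a narrow range, whereas the wild-type females were low and the wild-type males high, so that the log2 differences were 1.42 and 1.31 in the female pairs and -0.34 and 0.17 in the male pairs, with a mean of 0.64 ± 0.865 (SD, n = 4 pairs). In ISP8 cells the values were 104, 45.0, 50.1 and 52.5 in PKBα-/- mice, against 51.9, 75.5, 43.2 and 28.7 in wild-type mice. The ISP8 groups overlapped, the female pairs again had the larger differences (1.01 and 0.87), and the mean of 0.34 ± 0.43 did not pass (adjusted p = 0.911). *Etv5* fell by 1.37 ± 0.30 in ISP8 relative to DN3 cells of PKBα-/- mice (adjusted p = 0.00303), and the difference of -1.07 ± 0.38 in wild-type mice just missed the threshold (adjusted p = 0.0504), which it passed with log2(value + 20) (adjusted p = 0.0334), with robust moderation (0.0485) and without the 3-week-old females (0.0313). The further *Etv5* probe sets, 1420998_at and 1450082_s_at, had values of 11.7 to 110.0 and 1.29 to 56.4 and passed none of the tests they entered in ISP8 cells or between the subsets. In DN3 cells 1420998_at ran against 1428142_at, at -0.17 ± 0.82 (SD, n = 4 pairs) and lower in 3 of 4 pairs. In ISP8 cells it was higher in the PKBα-/- mouse of 4 of 4 pairs, by 0.58 ± 0.47 (adjusted p = 0.862 by limma), as were 7.96% of all probe sets tested.

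*Blk*, a kinase of the Src family known from B cells and from γδ T cells that make interleukins, was higher in the PKBα-/- mouse of every pair in both subsets. Its values were 235, 127, 151 and 325 in PKBα-/- DN3 cells, against 194, 116, 106 and 303.5 in wild-type DN3 cells. Here the litters differed far more than the genotypes, the 5-week-old mice being highest and the males lowest in each genotype, and the log2 difference was 0.26 ± 0.19 (SD, n = 4 pairs). In ISP8 cells the values were 120.1, 68.0, 123 and 138 in PKBα-/- mice, against 33.6, 26.1, 73.6 and 113 in wild-type mice. The groups overlapped through the 3-week-old PKBα-/- male and the wild-type mice of the 2-week-old and 5-week-old pairs, and the difference of 1.06 ± 0.35 did not pass (adjusted p = 0.771 by limma), though its p before adjustment was below 0.05. Of all probe sets tested in ISP8 cells, 7.96% were higher in PKBα-/- mice of 4 of 4 pairs and 6.08% had an unadjusted p below 0.05.

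*Blk* fell by 0.85 ± 0.25 in ISP8 relative to DN3 cells of PKBα-/- mice (adjusted p = 0.0182) and fell by 1.66 ± 0.37 in wild-type mice (adjusted p = 0.00363), with overlap in both genotypes. The call in PKBα-/- mice was lost with quantile normalization (adjusted p = 0.0785), without the mouse as a block (0.0679), by the methods' paired test (0.108), without the 3-week-old female (0.0511) and without the 5-week-old female (0.0789). The genotype difference of *Blk* was not shown to differ between the subsets, since the test of that difference gave no call for any of the 12 probe sets of *Sox13*, *Etv5*, *Blk*, *Maf* and *Zbtb16* that were tested (adjusted p = 0.961 to 0.998, by limma), against 1 of them at an unadjusted p below 0.05. Over all 36835 probe sets tested, 0.0% passed and 4.75% had an unadjusted p below 0.05.

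*Maf*, which encodes the leucine zipper factor c-MAF of γδ T cells and helper T cells, had the largest drop of the 6 genes between DN3 and ISP8 cells. On 1456060_at the values were 481, 365, 353 and 540.1 in PKBα-/- DN3 cells, against 394, 391, 289 and 543 in wild-type DN3 cells. Litters ran in parallel, with the 5-week-old females highest and the 2-week-old males lowest in each genotype, and the log2 difference was 0.12 ± 0.20 (SD, n = 4 pairs), higher in 2 of 4 pairs. In ISP8 cells the values were 47.8, 27.3, 33.5 and 104 in PKBα-/- mice, against 20.9, 40.0, 56.8 and 32.3 in wild-type mice, and the difference of 0.39 ± 0.54 did not pass (adjusted p = 0.92). That difference rested on the 5-week-old pair and was -0.04 without it.

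*Maf* fell by 3.21 ± 0.27 on 1456060_at in ISP8 relative to DN3 cells of PKBα-/- mice (adjusted p = 7.12e-07) and fell by 3.49 ± 0.34 in wild-type mice (adjusted p = 4.65e-06), without overlap. The second *Maf* probe set (1447849_s_at) had values of 79.4 to 160.5 in PKBα-/- DN3 cells and 72.1 to 116 in wild-type DN3 cells, whereas its ISP8 values were 1.41 to 15.3 in PKBα-/- mice and 1.15 to 28.4 in wild-type mice. It passed the filter between the subsets through its DN3 values, and it was called lower in ISP8 cells of PKBα-/- mice (adjusted p = 0.00112) and of wild-type mice (adjusted p = 0.00362). The ISP8 values lay around or below 20, where the size of the drop is uncertain. On the log2(value + 20) scale it fell by 2.14 in PKBα-/- mice and fell by 1.77 in wild-type mice, against fitted values without a constant of -3.89 and -3.72.

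The other 4 *Maf* probe sets reached at most 64.7 and passed none of the tests they entered in ISP8 cells or between the subsets. Of these, 1437473_at had 33.9, 30.5, 62.0 and 57.0 in PKBα-/- DN3 cells, against 20.6, 4.17, 7.93 and 38.2 in wild-type DN3 cells. It was thus higher in the PKBα-/- mouse of 4 of 4 pairs, with overlap of the groups, by a mean log2 difference of 1.78 ± 1.31 (SD, n = 4 pairs), to which wild-type values below 20 in the 2 male pairs contributed most.

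*Zbtb16*, which encodes PLZF, the factor of innate-like T cells, stayed at low values on all 3 probe sets, and at or below 20 on 9, 11 and 13 of the 16 arrays. Its brightest probe set (1427638_at) had values of 76.8, 29.3, 5.86 and 28.2 in PKBα-/- ISP8 cells, against 4.25, 49.99, 4.84 and 4.64 in wild-type ISP8 cells. In DN3 cells it had 19.1, 6.98, 6.25 and 6.48 in PKBα-/- mice, against 40.6, 43.4, 42.8 and 7.77 in wild-type mice. The PKBα-/- DN3 value was the lower in 4 of 4 pairs, with a mean log2 difference of -1.69 ± 1.22 (SD, n = 4 pairs) between values of which all 4 in PKBα-/- mice were below 20. No *Zbtb16* probe set passed a test that it entered, 1 of 3 being tested in ISP8 cells and between the subsets of PKBα-/- mice, and 2 of 3 between the subsets of wild-type mice. This probe set had the lowest unadjusted p of the test between the genotype differences of the subsets, at an adjusted p of 0.961 by limma.

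**Figure D2:**
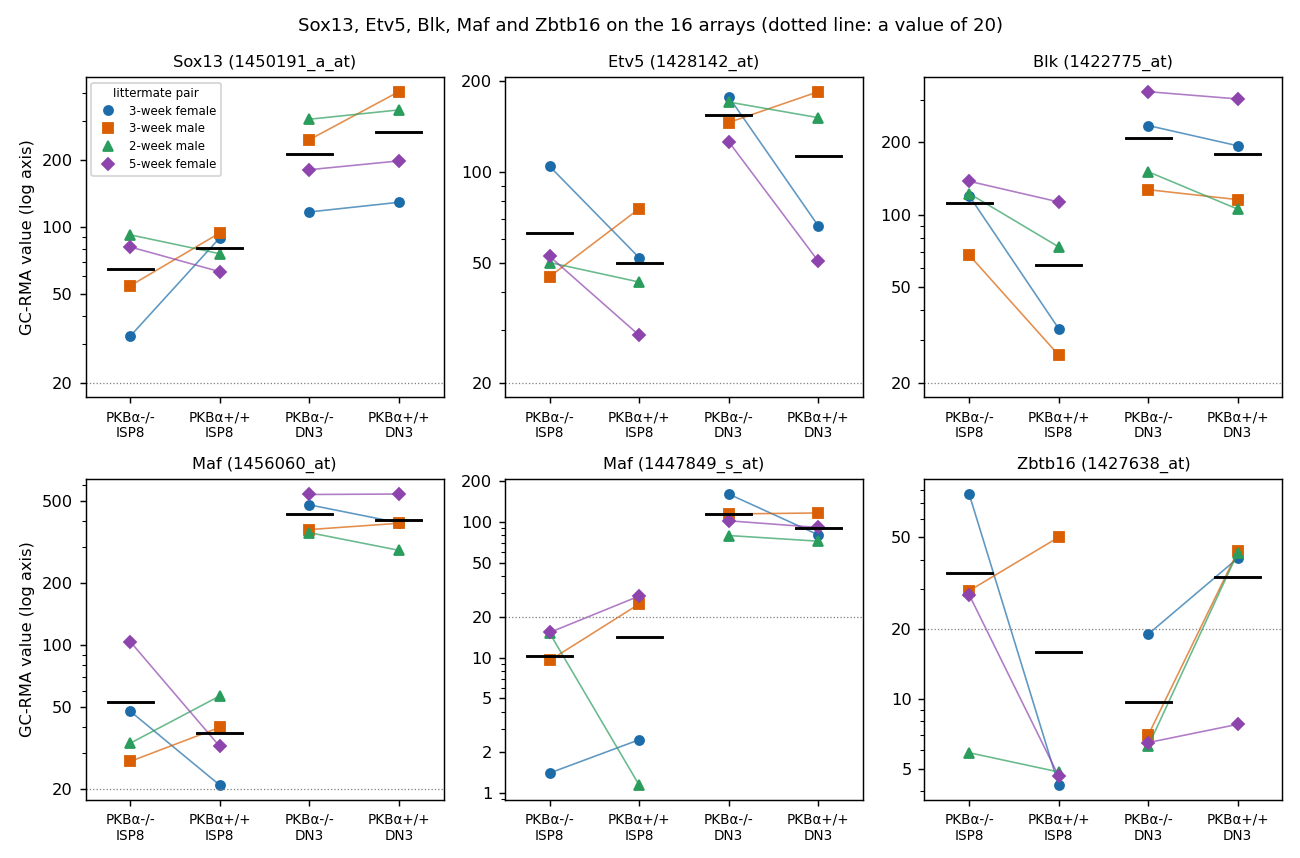
GC-RMA values (log axis) of *Sox13*, *Etv5*, *Blk*, the brightest 2 probe sets of *Maf* and the brightest of *Zbtb16*, with PKBα-/- left of PKBα+/+ in each subset. Each point is 1 array, shapes and colours give the littermate pair, lines join littermates, black bars are group means (n = 4) and the dotted line marks a value of 20. *Maf* separates the subsets most widely, and *Zbtb16* stays around the dotted line.

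None of the 16 probe sets separated the genotypes without overlap in either subset, beside 2.91% of all probe sets tested in ISP8 cells and 1.74% in DN3 cells. In ISP8 cells 0 of the 11 probe sets that passed the filter were called, against 0.0147% of all probe sets tested, and *Blk* was the 1 probe set with an unadjusted p below 0.05. The remaining 5 probe sets in ISP8 cells, 1 of *Etv5*, 2 of *Maf* and 2 of *Zbtb16*, and 2 in DN3 cells, 1 of *Maf* and 1 of *Zbtb16*, were below the filter, a value above 20 in at least 1 mouse of a pair in at least 3 of 4 pairs. The median log2 difference of the 16 was 0.36 in ISP8 cells and 0.19 in DN3 cells, beside medians of 0.02 and -0.01 over all probe sets tested, with a range of -0.90 to 1.57 in ISP8 cells and -1.69 to 1.78 in DN3 cells. Both ends of these ranges came from probe sets with values mostly below 60. The DN3 median includes both *Cd163l1* probe sets, whose DN3 difference led to the choice of the set, so it is no evidence on the set. The 16 also include probe sets below the filter, which the medians over all probe sets tested leave out.

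**Figure D3:**
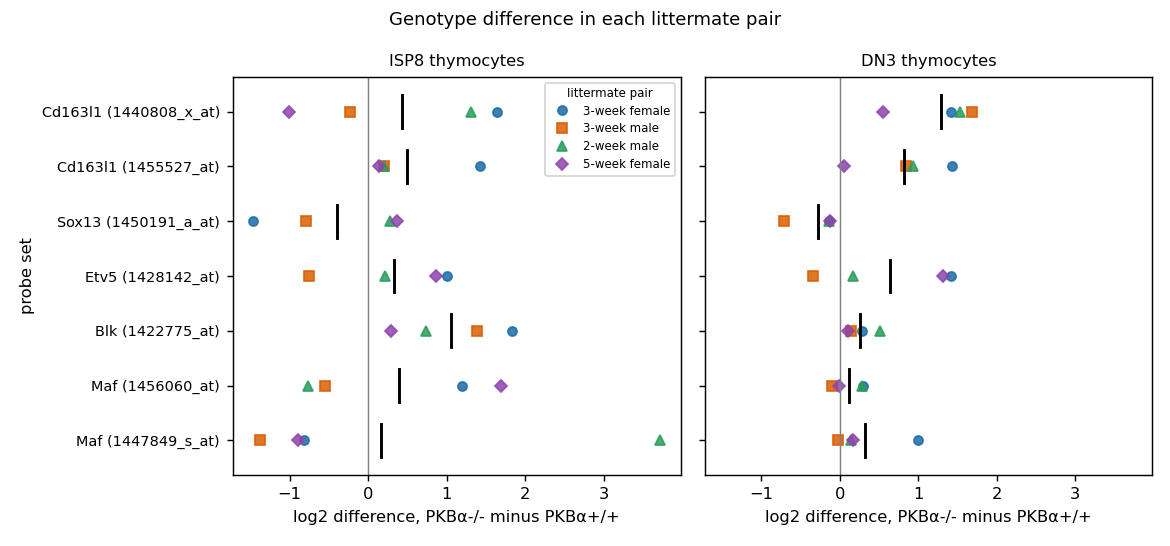
Difference between littermates, PKBα-/- minus PKBα+/+ on the log2 scale, for the 7 probe sets with a group mean above 100, in ISP8 cells (left) and DN3 cells (right). Each point is 1 littermate pair and the black bar is their mean (n = 4). Both *Cd163l1* probe sets and *Blk* lie at or right of 0 in all DN3 pairs. The pairs scatter more widely in ISP8 cells for every probe set shown but that of *Etv5*.

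Between the subsets, 7 of the 16 probe sets were lower in ISP8 cells of PKBα-/- mice, where 11 passed the filter. These were both of *Cd163l1*, 2 of *Maf* and 1 each of *Sox13*, *Etv5* and *Blk*, against 16.2% of all probe sets tested. In wild-type mice, where 14 passed the filter, 6 of the 16 were lower, the same without *Etv5*, against 17.3% of all probe sets. A filter on values in either subset keeps a gene that is high in 1 of them, so these counts describe the members and are no evidence on the whole set. No member probe set was called higher in ISP8 cells in either genotype. The values did not overlap between subsets for 6 of the 16 probe sets in PKBα-/- mice, beside 26.9% of all probe sets in either direction, and for 6 of 16 in wild-type mice, beside 26.7%. The median log2 difference of the 16 was -1.42 in PKBα-/- mice and -1.52 in wild-type mice, beside -0.05 and -0.09 over all probe sets.

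**Figure D4:**
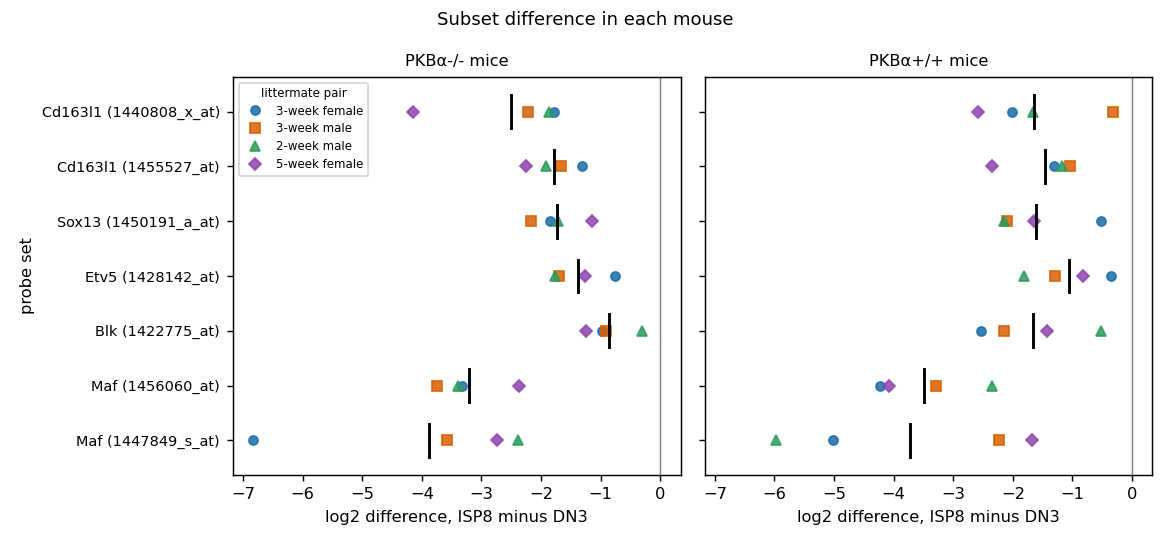
Difference between the subsets of each mouse, ISP8 minus DN3 on the log2 scale, for the 7 probe sets with a group mean above 100, in PKBα-/- mice (left) and PKBα+/+ mice (right). Each point is 1 mouse, its shape and colour give the littermate pair, and the black bar is the mean (n = 4). Every point lies left of 0, and *Maf* lies farthest left.

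The genes that most resembled *Cd163l1* over the 16 arrays were *Vamp5* (r = 0.907), *Kdm3a* (r = 0.907), *Avl9* (r = 0.90), *Kank2* (r = 0.898) and *Txlng* (r = 0.897), by Pearson correlation of log2 values with 1440808_x_at. All 5 were higher in DN3 than in ISP8 cells, as *Kank2* with means of 89.7 in PKBα-/- and 69.7 in wild-type ISP8 cells, and 249 in PKBα-/- and 232 in wild-type DN3 cells. The second *Cd163l1* probe set had r = 0.955, and the best probe sets of *Maf*, *Blk*, *Etv5* and *Sox13* had 0.775, 0.732, 0.526 and 0.525. These arrays share mice, litters and the difference between the subsets, so the coefficients are descriptions.

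Within the 8 DN3 arrays the order changed. *Tox3* (r = 0.956), *Stac3* (r = 0.956), *Tgfbr1* (r = 0.955), *Tgfb1i1* (r = 0.947) and *Krtap4-7* (r = 0.945) came first, and *Cd163l1* 1455527_at had r = 0.961. *Tox3*, an HMG-box factor, averaged 843 in PKBα-/- DN3 cells and 724 in wild-type DN3 cells. *Blk* (0.746) and *Maf* (0.717) had positive coefficients, and the 5-week-old pair was highest for each of them, whereas *Sox13* (-0.32) and *Etv5* (-0.18) had negative ones. Among the dim probe sets, *Zbtb16* 1427638_at had r = -0.908, the farthest from 0 of all members beside *Cd163l1*, and *Maf* 1437473_at had r = 0.831, both with many values below 20.

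The transcripts of the γ chain loci, which DN3 cells also make before they carry a γδ receptor, differed little between the genotypes on their brightest probe sets. *Trgv4* averaged 20490 in PKBα-/- and 20460 in wild-type DN3 cells, and *Trgv1* averaged 8404 in PKBα-/- and 8480 in wild-type DN3 cells, with log2 differences of 0.02 and 0.01. On the brightest *Trgv4* probe set the pairs ran both ways, with 19450, 20400, 18750 and 23340 in PKBα-/- DN3 cells, against 22270, 18630, 16300 and 24620 in wild-type DN3 cells. A dimmer *Trgv4* probe set was higher in the PKBα-/- mouse of every pair, with 528, 695, 523 and 921.5 in PKBα-/- DN3 cells, against 478, 516, 422.5 and 835 in wild-type DN3 cells. Another *Trgv4* probe set had the same order within pairs, with 12040, 10800, 9535 and 14050 in PKBα-/- DN3 cells, against 11650, 9709, 9054 and 13360 in wild-type DN3 cells. Of all probe sets tested in DN3 cells, 5.51% were higher in PKBα-/- mice of 4 of 4 pairs. The 5-week-old pair was highest for *Trgv1*, with 10870 in its PKBα-/- mouse and 12690 in its wild-type mouse, against at most 8224 in the younger PKBα-/- and 7321 in the younger wild-type DN3 samples. In ISP8 cells *Trgv1* fell by 4.02 ± 0.11 in PKBα-/- mice (adjusted p = 1.21e-11) and fell by 4.35 ± 0.18 in wild-type mice (adjusted p = 3.49e-09). Sequences of related γ segments are near-identical, so these probe sets may bind transcripts of more than 1 segment.

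Regulators that act with these genes showed no genotype call. Of 18 further regulators of the γδ fate, 16 had a probe set with a single symbol, and 0 of 16 passed in DN3 or in ISP8 cells, with 2 in DN3 cells and 1 in ISP8 cells at an unadjusted p below 0.05, which 4.83% of all probe sets reached in DN3 cells and 6.08% in ISP8 cells. In DN3 cells 11 of the 16 genotype differences were positive and 5 negative. *Id3* averaged 944 in PKBα-/- and 701 in wild-type DN3 cells, with overlap, a log2 difference of 0.49 ± 0.15 (adjusted p = 0.866 by limma). In ISP8 relative to DN3 cells 2 of the regulators rose and 6 fell in PKBα-/- mice, beside 11.9% and 16.2% of all probe sets, and 2 rose and 5 fell in wild-type mice, beside 11.6% and 17.3%. Between the subsets *Id3*, the E protein inhibitor induced by receptor signals, rose by 0.75 ± 0.11 in PKBα-/- mice (adjusted p = 1.3e-04) and by 1.05 ± 0.15 in wild-type mice (adjusted p = 1.26e-04), whereas its relative *Id2* fell by 2.28 ± 0.23 in PKBα-/- mice (adjusted p = 4.08e-06) and fell by 2.22 ± 0.32 in wild-type mice (adjusted p = 1.53e-04). *Hes1*, a target of Notch receptors, fell by 4.15 in PKBα-/- mice (adjusted p = 2.41e-10) and fell by 4.35 in wild-type mice (adjusted p = 3.7e-09), and *Bcl11b*, a T lineage factor, fell by 0.54 in PKBα-/- mice (adjusted p = 5.19e-05) and fell by 0.74 in wild-type mice (adjusted p = 3.99e-06).

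Of 19 surface and effector genes of γδ T cells, 17 had a probe set. Between the genotypes 0 of 12 tested in DN3 cells and 0 of 15 tested in ISP8 cells passed, with 0 at an unadjusted p below 0.05 in DN3 and 1 in ISP8 cells. Between the subsets 3 of 12 rose and 4 fell in PKBα-/- mice, and 2 of 14 rose and 4 fell in wild-type mice, beside the shares of all probe sets just given. *5830411N06Rik*, which encodes SCART2, a receptor related to the *Cd163l1* product, averaged 991 in PKBα-/- DN3 cells and 977 in wild-type DN3 cells, a log2 difference of 0.09 ± 0.13, and fell in ISP8 cells by 1.82 ± 0.26 in PKBα-/- mice (adjusted p = 1.03e-04) and fell by 1.53 ± 0.24 in wild-type mice (adjusted p = 2.85e-04). *Il7r*, a cytokine receptor of early thymocytes, fell by 3.32 in PKBα-/- mice and fell by 2.91 in wild-type mice. *Cd24a*, a marker of immature thymocytes, fell by 0.38 in PKBα-/- mice and fell by 0.25 in wild-type mice, and *Cd5*, an inhibitor of receptor signals, rose by 1.10 in PKBα-/- mice and by 1.22 in wild-type mice. *Il17a* averaged 13.2 in PKBα-/- and 14.1 in wild-type ISP8 cells, and 22.1 in PKBα-/- and 16.8 in wild-type DN3 cells, all around the filter value.

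Relatives of the members gave a mixed picture. Of 7 genes of the scavenger receptor cysteine-rich family, *5830411N06Rik* among them, *Cd163* of macrophages was called lower in ISP8 cells of PKBα-/- mice (adjusted p = 0.00101) and of wild-type mice (adjusted p = 0.00428), whereas *Cd6*, a receptor of T cells, rose, with means of 1085 in PKBα-/- and 952 in wild-type ISP8 cells, and 345 in PKBα-/- and 336 in wild-type DN3 cells. *Cd163* averaged 13.9 in PKBα-/- and 9.35 in wild-type ISP8 cells, below the filter value, and 113 in PKBα-/- and 78.0 in wild-type DN3 cells, through which it entered the test, so the size of its drop is uncertain. *Sox5* and *Sox6*, relatives of *Sox13*, *Etv4*, a relative of *Etv5*, and the 4 measured relatives of *Maf* (*Mafk*, *Mafg*, *Maff* and *Nrl*) passed none of the tests they entered. Of 4 further Src family kinases, *Fyn* fell in ISP8 cells of wild-type mice (log2 difference -0.46 ± 0.13, adjusted p = 0.0152) and had -0.31 ± 0.14 in PKBα-/- mice (adjusted p = 0.137), and the difference between these was not tested. Of 7 relatives of *Zbtb16*, 1 rose and 3 fell in ISP8 cells in each genotype, with *Bcl6* up by 1.84 in PKBα-/- and 1.92 in wild-type mice and *Zbtb20* at log2 differences of -2.15 in PKBα-/- and -2.72 in wild-type mice. No relative passed a test between the genotypes that it entered.

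Some markers of other cells moved with these results, and others of the same lists ran the opposite way. The summed value of 7 natural killer and innate lymphoid markers was 251 to 421 in PKBα-/- and 303 to 547 in wild-type ISP8 samples. In DN3 samples it was 1482 to 1956 in PKBα-/- and 1555 to 1894 in wild-type DN3 cells. Most of the DN3 sum was *Nkg7*, with a mean of 148.5 in PKBα-/- and 210.2 in wild-type ISP8 cells, and of 1625 in PKBα-/- and 1600.0 in wild-type DN3 cells, and its part in the lower ISP8 values of the members was not tested. In ISP8 relative to DN3 cells 1 marker of this list was called higher and 1 lower in each genotype. *Nkg7* had log2 differences of -3.48 in PKBα-/- and -3.01 in wild-type mice. *Tbx21* rose by 3.09 in PKBα-/- mice (adjusted p = 0.0385 by limma), and *Eomes* rose by 1.64 in wild-type mice (adjusted p = 0.0333). Their DN3 means there were low, at 6.03 and 21.7. In this list *Tbx21*, *Gzmb* and *Klrk1* were at or below 20 on all PKBα-/- DN3 arrays. The 7 B cell markers summed to 1195 to 1311 in PKBα-/- and 1288 to 1423 in wild-type DN3 cells, nearly all of it *Cd79b*, with *Cd79a* at or below 20 on all PKBα-/- DN3 arrays. In DN3 cells the natural killer sum was higher in the PKBα-/- mouse of 2 of 4 pairs and the B cell sum in that of 1 of 4 pairs. Each of these sums came mostly from 1 gene, so neither is a measure of those cells. The part of such cells in the *Cd163l1* difference was not tested. The 8 macrophage and dendritic cell markers summed to 869 to 1565 in PKBα-/- and 832 to 1304 in wild-type DN3 cells and were higher in the PKBα-/- mouse of all 4 pairs. Of the 8 log2 differences 3 were positive and 5 negative, with a median of -0.24. The positive ones were those of *H2-Aa*, at 219 in PKBα-/- and 92.4 in wild-type DN3 cells, *Cd74*, at 97.4 in PKBα-/- and 53.4 in wild-type DN3 cells, and *Lyz2*, at 584.5 in PKBα-/- and 445 in wild-type DN3 cells, and *Csf1r*, *Cd68*, *Itgam*, *Itgax* and *Adgre1* had negative ones. By limma 0 of the 8 passed and 4 had an unadjusted p below 0.05, which 4.83% of all probe sets tested in DN3 cells reached. These 4 did not run 1 way, since *Adgre1*, at -0.59 ± 0.28, was among them. The part of such cells in the *Cd163l1* difference was not tested. The 5 ISP8 markers summed to 1964 to 6809 in PKBα-/- and 3713 to 9827 in wild-type DN3 cells, highest in the 5-week-old mouse of each genotype. Most of this sum was *Ccr9*, which gave no call between the subsets (adjusted p = 0.741 in PKBα-/- and 0.934 in wild-type mice), so the sum is no measure of ISP8 cells. *Cd8a* averaged 150.1 in PKBα-/- and 246.5 in wild-type DN3 cells, and *Cd8b1* averaged 178 in PKBα-/- and 197 in wild-type DN3 cells, and the part of such cells in the *Cd163l1* values was not tested. The summed erythroid markers were between 53.1 and 196.5 on all arrays.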

How the data were processed

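DN3 and ISP8 thymocytes of 4 littermate pairs were measured on 16 Affymetrix mouse genome arrays after RNA amplification in 2 cycles. The authors estimated intensity values with GC-RMA in Genedata Refiner, which corrects background and normalizes between arrays, and the deposited intensities are on a linear scale. They were used after log2 transformation with no added constant. Arrays carry no read depth, so their number limits the precision. The genome build behind the probe sets is not given in the sources used here. The annotation gave 1 symbol to 34958 probe sets, several to 932 and none to 9211, and only probe sets with 1 symbol were named. Some symbols of the lists matched no such probe set and are not analysed here. Start regions came from RefSeq.

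Comparisons were fitted with limma 3.58.1 under R 4.3.3 (lmFit and eBayes with a trend), with the littermate pair or the mouse as a block. A probe set was tested when it was above 20 on at least 1 of the 2 arrays of a block in at least 3 of 4 blocks. The Benjamini-Hochberg adjustment ran over all probe sets tested, with 0.05 as the threshold. The difference of the genotype differences was fitted over 16 arrays, on probe sets that passed in either subset. Pairs come from the labels, which name littermates. Deviations of littermates from their group means correlated, with coefficients between 0.0706 and 0.178 in ISP8 and between 0.316 and 0.384 in DN3 cells, over probe sets above 20 on all 8 arrays. P values within a subset or a genotype rest on the spread of the paired differences between litters, moderated across probe sets. The difference of the genotype differences had the mouse as its block. Its p rests on the spread between mice of a genotype and leaves out the littermate pairing. Litter, age and sex cannot be told apart.

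The members and lists were chosen with earlier results of these data known. All member probe sets are reported, with up to 4 genes per further list (those that passed, by smallest adjusted p, otherwise the highest mean), each by its brightest probe set, and the 5 genes most like *Cd163l1*; *Cd163*, *Fyn*, *Il17a* and *Gzmb* and other markers are named where a sentence turns on them. The fits were tested on simulated data. Alternatives were no filter, a filter at 100, log2(value + 20), quantile normalization, no block, robust moderation, the methods' paired test with adjustment, and leaving out each pair.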

Additional observations from a re-analysis of the deposited data

Results flagged for a closer look

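Of 40 groups of 4 arrays examined for the member probe sets, 3 held a value set apart from the rest of its group by nearly the whole range of that group, which chance gives in about 1 of 20 groups. The *Cd163l1* probe set 1440808_x_at had 4375 in the 5-week-old PKBα-/- DN3 sample, against 1712 to 1908 in the others of that group. Its littermate, the 5-week-old wild-type DN3 sample, had 2978, against 596 to 641 in the other wild-type DN3 samples. The *Zbtb16* probe set 1427638_at had 7.77 in the same wild-type mouse, against 40.6 to 43.4 in the other wild-type DN3 samples.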

How the results depend on the processing

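In the comparison of genotypes in ISP8 cells, no alternative gave a call for any member. The count over all probe sets, 5, was 3 without a filter, 1 with a filter at 100, 2 without the pair as a block, 0 by the methods' paired test with adjustment (1811 at an unadjusted p under 0.05), and 1 to 11 on leaving out each pair (1 without the 3-week-old females, 11 without the 5-week-old females). Between the genotypes in DN3 cells, where members were not tested, the count over all probe sets, 13, was 27 with log2(value + 20), 8 without a filter, 1 without the pair as a block, 0 by the methods' paired test with adjustment (1486 at an unadjusted p under 0.05), and 11 to 45 on leaving out each pair (23 without the 3-week-old females, 45 without the 2-week-old males, 25 without the 5-week-old females). For ISP8 against DN3 cells, the members called were 5 to 7 in wild-type and 6 to 7 in PKBα-/- mice, except by the methods' paired test with adjustment, which gave 3 members (*Cd163l1* 1455527_at, *Sox13* and *Maf* 1456060_at) and 3036 probe sets in PKBα-/- mice, and 1 member (*Maf* 1456060_at) and 3103 probe sets in wild-type mice. Without the replicate block 6 members were called in each genotype, with 8559 probe sets in PKBα-/- and 8383 in wild-type mice. Quantile normalization gave a median subset difference over all probe sets of 0.03 in wild-type mice, against -0.09 on the deposited scale.

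Some small differences turned sign on leaving out 1 pair, each given here with its range over the 4 exclusions. The genotype difference of *Etv5* 1420998_at in DN3 cells ranged from -0.575 to 0.02 (without the 5-week-old females). The genotype difference of *Maf* 1456060_at in ISP8 cells ranged from -0.04 (without the 5-week-old females) to 0.78. The subset difference of *Etv5* 1420998_at ranged from -0.11 (-0.07 without the 5-week-old females) to 0.76 in PKBα-/- mice, and from -1.08 to 0.13 in wild-type mice. The difference of the genotype differences ranged from -0.32 to 0.28 for *Sox13*, from -0.20 to 0.72 for *Maf* 1456060_at, from -0.40 to 1.81 for *Maf* 1435828_at, and from -1.41 to 0.39 for *Maf* 1447849_s_at, which was also 0.24 without the 3-week-old males and 0.14 without the 5-week-old females. The cause was not tested. With 4 litters, values around 20 and below are too scattered for a fold to be read.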
